A study of Mus musculus with 6 samples.

Results

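The genes of the islet cells other than β cells were compared between the islets of diabetic db/db mice and those of db/m mice. They were 8 of the 44713 genes counted, and they were taken by name as the hormone genes and transcription factors of these cells. The hormone genes were Gcg, which encodes proglucagon, Sst (somatostatin), Ppy (pancreatic polypeptide), Pyy (peptide YY) and Ghrl (ghrelin). The transcription factor genes were Irx1 and Irx2, Iroquois factors expressed in α cells, and Hhex, a homeobox factor required for δ cells. The question was whether their transcripts were higher or lower in db/db islets, and how far the mice of 1 group differed among themselves.

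RNA was sequenced from the islets of 3 db/db and 3 db/m mice, 1 library per mouse, all males killed at 10 weeks of age. The db/db mice carry the Lepr db allele on both chromosomes, which the labels write as Lepr-/-. Without leptin signalling they overeat and develop obesity and diabetes. The db/m mice were their non-diabetic littermates, which the labels call wild type. All mice were on a normal diet. The labels give the C57BL/6 strain for both groups, whereas the methods of the study describe mice on the BKS background. Islets were separated from the exocrine pancreas with collagenase and a Histopaque gradient, so that acinar, duct, stromal and vessel cells could be carried along.

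The islet holds several kinds of endocrine cell. The α cells secrete glucagon, which raises blood glucose and is cut from proglucagon by the convertase PC2. The δ cells secrete somatostatin, which restrains their neighbours through somatostatin receptors, and the PP and ε cells secrete pancreatic polypeptide and ghrelin. Mouse islets are mostly β cells, and the other types lie largely at the rim.

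The positions of the 8 genes were read from the RefSeq annotation of GRCm38.p6, the patched form of the mm10 build used for mapping. Gcg lies on the minus strand of chr2:62474530-62483653 and Sst on the minus strand of chr16:23889573-23891342. Ppy at chr11:102099931-102101319 and Pyy at chr11:102106676-102107832 are neighbours on the minus strand, 5356 bases apart. Ghrl lies at chr6:113716119-113719911 on the minus strand and Hhex at chr19:37434841-37440731 on the plus strand. Irx1 at chr13:71958232-71963723 and Irx2 at chr13:72624430-72634196 share a chromosome but are 660706 bases apart. Counts of Irx2 are uncertain because the long non-coding RNA gene Gm20554 overlaps it on the other strand and strand use in counting is not given in the sources used here. Of the stretches of 50 bases in Ghrl transcripts, 9.91% also occur in the transcripts of Gm44033, against 0% for Gcg, Sst, Ppy and Pyy.

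Of the 8 genes, 7 had a promoter in the RefSeq table of this build (the entry for Irx1 was the one not matched). A TATA motif, searched as TATAA on the gene's strand in the last 40 bases before the start, was found in Gcg, Ppy and Pyy and in 4.23% of all 32851 promoters. The 100 bases before the start of these 3 hormone genes are shown, 5′ to 3′ on the gene's strand, with TATAA in capitals, for chr2:62483654-62483753, chr11:102101320-102101419 and chr11:102107833-102107932. The palindrome TGACGTCA, the core of the cyclic AMP response element, was searched on both strands of the 250 bases before the start and was found in Sst and in 1.55% of all promoters. For Sst the 30 bases at chr16:23890874-23890903 on the minus strand, which run from 59 to 30 bases before the start in that table, are shown with the palindrome in capitals. That start lies 498 bases inside the Sst gene as annotated, whose span begins at a start further upstream.
Gcg: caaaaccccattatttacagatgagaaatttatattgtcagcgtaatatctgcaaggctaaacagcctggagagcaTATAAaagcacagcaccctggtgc
Ppy: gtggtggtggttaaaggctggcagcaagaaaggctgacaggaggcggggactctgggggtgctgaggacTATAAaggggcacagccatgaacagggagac
Pyy: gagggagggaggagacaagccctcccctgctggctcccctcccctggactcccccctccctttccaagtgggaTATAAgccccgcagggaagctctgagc
Sst: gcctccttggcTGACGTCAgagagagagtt
Short motifs were common in these windows. TAAT, searched on both strands, was present in Gcg and Sst and in 54.9% of all promoters, and CANNTG, which reads the same on both strands, was present in 5 of the 7 promoters and in 66.2% of all. A match describes the letters of the window and does not show that a factor binds there.

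The libraries held between 15641797 and 20614531 counts. Most counts were exocrine. The 33 acinar genes of the marker list found in the table took between 71.7% and 77.9% of the counts in db/db islets against between 54.4% and 70.0% in db/m islets. The insulin genes Ins1 and Ins2 together took between 0.121% and 0.502% in db/db mice. In db/m replicates 2 and 3 they took 0.605% and 0.649%, but in db/m replicate 1 they took 3.75%. That library had the lowest acinar share and was the highest of the 6 for Gcg, Sst, Ppy, Pyy, Ghrl, Ins1, Ins2 and Iapp, so results are given with and without it. In bulk islets, fewer cells of a type and less RNA per cell cannot be told apart. The db mutation alters the splicing of Lepr rather than removing the gene, so its gene count, with an adjusted p of 0.732 in edgeR, does not check the genotype.

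Of the 8 genes, 5 passed the filter on low counts (Gcg, Sst, Ppy, Pyy and Hhex). Of these, 0 of 5 differed at an adjusted p under 0.05 in edgeR, against 79 of the 12760 genes tested (0.619%), and 0 of 5 had an unadjusted p under 0.05, against 14.9% of all tested genes. The levels of the groups overlapped in each of the 5, whereas 21.1% of all tested genes did not overlap between the groups. DESeq2 also called 0 of the 5 genes. Fold changes are given on the log2 scale as db/db against db/m, with the standard error (SE), and levels as CPM, the counts scaled to library size with TMM factors, in the order of replicates 1 to 3.

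Gcg was the highest of the 8 genes in all 6 libraries. It had 286, 536 and 299 CPM in db/db replicates 1 to 3 and 1126, 308 and 167 CPM in db/m replicates 1 to 3, from 3559, 8967 and 4450 counts and from 30680, 5287 and 3091 counts. The values of the db/db mice lay between those of the db/m mice. The mean was 374 ± 141 CPM in db/db islets against 534 ± 518 CPM in db/m islets (SD, n = 3 each), and the fold change was -0.51 ± 0.63 (SE; 95% interval from -1.94 to 0.91; adjusted p = 0.736, edgeR). Without db/m replicate 1 the db/m mean was 238 CPM and the fold change turned to 0.67 (adjusted p = 0.601).

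Sst, whose product inhibits the release of both insulin and glucagon, had 37.7, 92.7 and 53.9 CPM in db/db islets against 241, 32.03 and 32.9 CPM in db/m islets. The 3 db/db values lay above those of db/m replicates 2 and 3 and below that of db/m replicate 1. The fold change was -0.73 ± 0.74 (SE; 95% interval from -2.40 to 0.93; adjusted p = 0.675, edgeR) and 0.95 without db/m replicate 1 (adjusted p = 0.398).

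Ppy had 43.5, 128 and 41.8 CPM in db/db islets against 273, 75.5 and 55.6 CPM in db/m islets. Here db/db replicates 1 and 3 were the lowest of the 6 libraries. The fold change of Ppy was -0.93 ± 0.64 (SE; 95% interval from -2.38 to 0.52; adjusted p = 0.530, edgeR), and 0.14 without db/m replicate 1 (adjusted p = 0.952).

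Pyy, a relative of pancreatic polypeptide made by endocrine cells of islet and gut, had 21.5, 49.7 and 33.2 CPM in db/db islets against 128.5, 14.6 and 14.6 CPM in db/m islets. As with Sst, each db/db mouse was above db/m replicates 2 and 3. Its fold change was -0.60 ± 0.77 (SE; 95% interval from -2.34 to 1.15; adjusted p = 0.752, edgeR) and 1.28 without db/m replicate 1 (adjusted p = 0.221). For Gcg, Sst, Ppy and Pyy alike, the direction turned when db/m replicate 1 was left out. With all 6 libraries the 95% intervals covered changes of either sign, and without db/m replicate 1 they did so for Gcg and Ppy but lay above 0 for Sst (from 0.11 to 1.78) and Pyy (from 0.47 to 2.08), neither passing the adjustment over all genes.

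**Figure D1:**
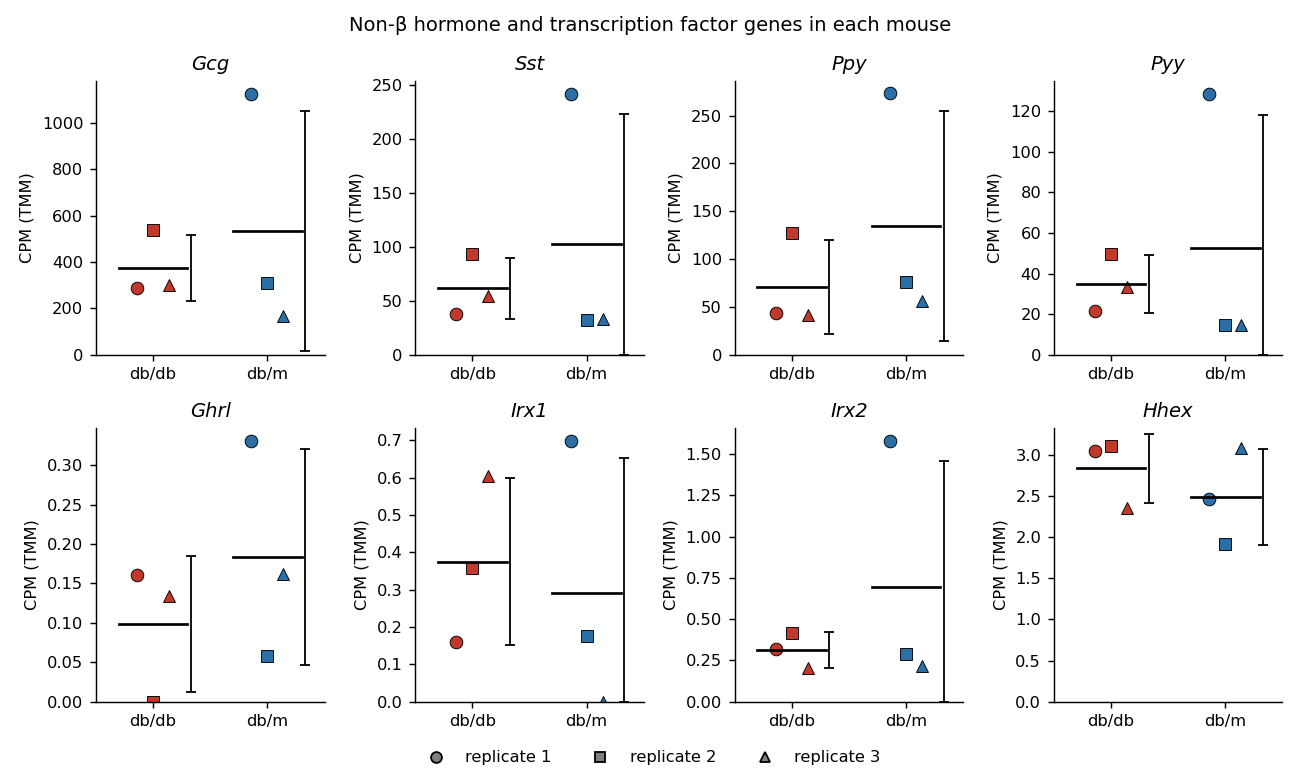
Level of each of the 8 genes by library, in CPM (counts scaled to library size with TMM factors), with 1 panel per gene and its own axis. Marker shape gives the replicate number, the horizontal line is the mean and the error bar the SD (n = 3, its lower end stopped at 0). In the panels of Gcg, Sst, Ppy and Pyy the highest point is db/m replicate 1, and in those of Sst and Pyy the 3 db/db points all lie above the other 2 db/m points.

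Ghrl, the ε-cell hormone gene, was close to the limit of detection. It had 2, 0 and 2 counts in db/db islets against 9, 1 and 3 in db/m islets, and the 0 of db/db replicate 2 allows up to 0.179 CPM, taken as 3 counts. Only db/m replicate 1 exceeded 3 counts, so a difference in Ghrl was not detectable at this depth. With every gene of at least 1 count tested, its adjusted p was 0.818 (edgeR).

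The transcription factor genes were much lower than Gcg, Sst, Ppy and Pyy, but Hhex was above Ghrl. Irx1 had 2, 6 and 9 counts in db/db islets against 19, 3 and 0 counts in db/m islets. Irx2 had 4, 7 and 3 counts in db/db islets against 43, 5 and 4 counts in db/m islets. In both, db/m replicate 1 was the highest library and the other 5 libraries were at 9 counts or fewer. Neither passed the filter, and with every gene of at least 1 count tested their adjusted p was 0.919 for Irx1 and 0.669 for Irx2 (edgeR).

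Hhex was the most even of the 5 tested genes. It had 3.05, 3.11 and 2.35 CPM in db/db islets against 2.46, 1.92 and 3.09 CPM in db/m islets, from 33 to 67 counts a library. Its level in db/m replicate 1 lay between those of the other db/m mice, unlike that of the hormone genes. The fold change was 0.19 ± 0.36 (SE; 95% interval from -0.63 to 1.01; adjusted p = 0.843, edgeR) and 0.21 without db/m replicate 1. Hhex is also expressed in duct cells, and the 13 duct genes of the marker list summed to between 391 and 474 CPM in db/db islets against between 319 and 412 CPM in db/m islets; the part of duct cells in its level was not tested.

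Levels of different genes were compared per kb of exon length. Gcg stood at 343 CPM per kb in db/db islets against 489 in db/m islets (group means), Ppy at 142 and 270, Sst at 63.5 and 105, and Pyy at 62.0 and 93.7. Gcg exceeded Ppy in 6 of 6 libraries, by 1.38- to 3.28-fold, and Ppy exceeded Sst in 6 of 6, by 1.502- to 4.57-fold. Sst and Pyy were close to each other, with Sst higher in 5 of 6 libraries and a ratio between 0.941 and 1.30. A wide step separated Pyy from Hhex, which stood at 1.60 and 1.41 CPM per kb. Means of Irx1 were 0.182 and 0.141 CPM per kb, those of Ghrl 0.156 and 0.291, and those of Irx2 0.0427 and 0.0946. On the same scale the β-cell hormone gene Ins2 stood at 5797 and 13610 CPM per kb.

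Since the exocrine share differed between libraries, the hormones were also compared with each other within each library, which needs no normalization between libraries. In each library the counts of Gcg, Sst, Ppy, Pyy, Ghrl, Ins1, Ins2 and Iapp, which encodes the β-cell peptide amylin, were set to 100%. The 5 hormone genes of non-β cells together made up 13.7%, 11.2% and 7.61% of these counts in db/db replicates 1 to 3 and 6.85%, 5.62% and 3.44% in db/m replicates 1 to 3. Each db/db mouse was thus above each db/m mouse, db/m replicate 1 included.

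Gcg alone made up 10.1%, 7.47% and 5.32% of the hormone counts in db/db islets against 4.36%, 4.02% and 2.13% in db/m islets. Its mean share was 7.62% ± 2.38 against 3.50% ± 1.20 (SD, n = 3 each; two-sided exact permutation test p = 0.1). For Sst the shares were 1.33%, 1.29% and 0.958% against 0.934%, 0.418% and 0.418% (exact permutation p = 0.1). For Pyy they were 0.759%, 0.692% and 0.590% against 0.498%, 0.191% and 0.186% (exact permutation p = 0.1). The groups did not overlap in these 3 hormones, nor in Ins1 and Ins2, so that 5 of the 8 shares did not overlap, beside 21.1% of all tested genes in CPM. With 3 mice against 3 the smallest p that this test can give is 0.1, so no share could pass 0.05, and over the 8 shares the Benjamini-Hochberg adjusted p of these exact tests was 0.16.

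Ppy was different in that its shares overlapped. They were 1.53%, 1.78% and 0.742% in db/db islets against 1.06%, 0.986% and 0.707% in db/m islets (exact permutation p = 0.3). Ghrl was at most 0.00566% of the hormone counts in the 6 libraries (exact permutation p = 0.6).

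Shares of 1 library add to 100%, so they are not independent of each other. The share of Ins1 was 8.79% ± 0.931 in db/db islets against 23.5% ± 2.28 in db/m islets, and that of Ins2 was 64.6% ± 3.81 against 57.4% ± 4.02 (SD, n = 3; exact permutation p = 0.1 for both, groups not overlapping). The share of Iapp, at 15.7% against 13.8%, overlapped (exact permutation p = 0.6). In CPM, the fold change of Ins1 was -2.88 ± 0.64 (SE; adjusted p = 0.0870, edgeR), with -1.23 for Ins2 (adjusted p = 0.388) and -0.99 for Iapp (adjusted p = 0.405). Over 16 alternative fits the fold change of Ins1 stayed below 0, with an adjusted p between 2.87e-06 (DESeq2) and 0.445 (edgeR). The CPM of Ins1 did not overlap between the groups, as in 21.1% of all tested genes.

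**Figure D2:**
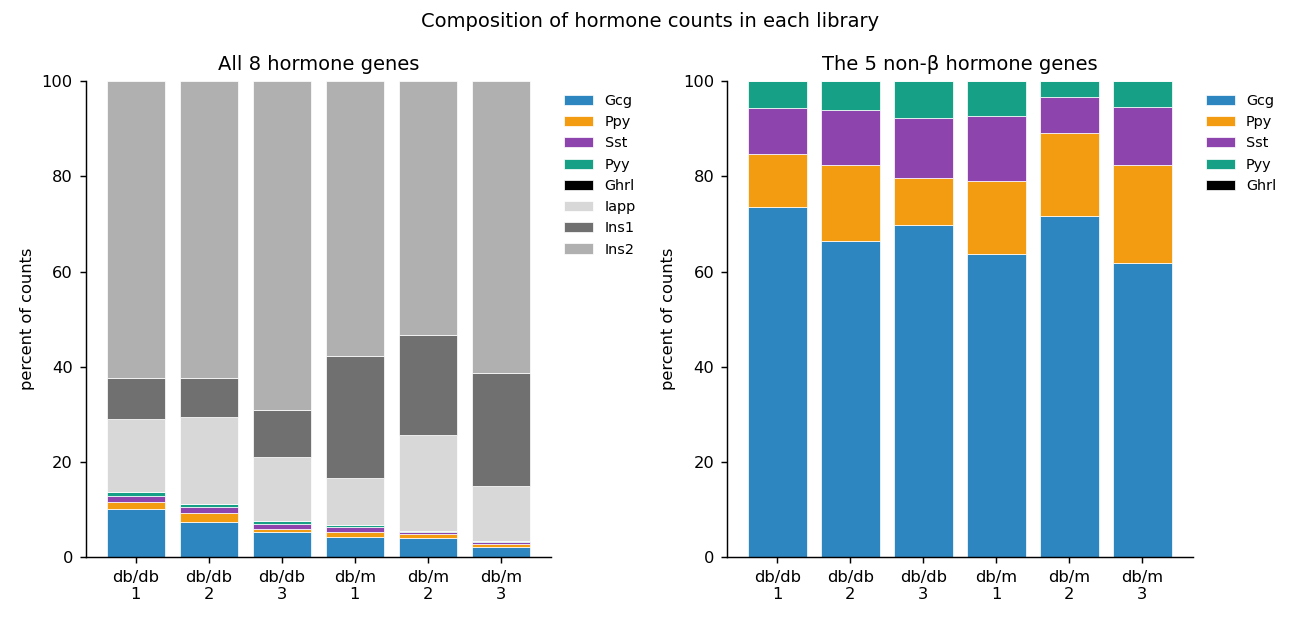
Composition of hormone counts by library, as stacked bars in percent. The left panel gives the shares among the summed counts of 8 islet hormone genes, and the right panel those among the 5 non-β hormone genes alone. In the left panel the 3 db/db shares of Gcg, Sst and Pyy (10.1% to 5.32%, 1.33% to 0.958% and 0.759% to 0.590%) all exceed the 3 db/m shares, while those of Ppy, Ghrl and Iapp overlap.

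As ratios, Gcg had 14.2, 10.6 and 6.74 counts per 100 insulin counts (Ins1 and Ins2 summed) in db/db islets against 5.23, 5.41 and 2.50 in db/m islets. The mean log2 ratio was 1.28 higher in db/db mice, a 2.43-fold difference (exact permutation p = 0.1, the smallest possible), and 2.73-fold without db/m replicate 1 (exact permutation p = 0.2). Sst had 1.88, 1.83 and 1.21 counts per 100 insulin counts in db/db islets against 1.12, 0.562 and 0.492 in db/m islets, a 2.38-fold difference (exact permutation p = 0.1) and 3.06-fold without db/m replicate 1. The ratio of Ppy to insulin was 1.54-fold higher on average and overlapped between the groups (exact permutation p = 0.3). Over the 6 ratios compared, the adjusted p of the ratios that did not overlap was 0.2 (Benjamini-Hochberg, exact tests).

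The size of these ratios depended on the β-cell hormone in the denominator, a comparison added after the data were seen. Against Ins2 alone, Gcg had 16.1, 11.96 and 7.70 counts per 100 in db/db islets against 7.55, 7.55 and 3.48 in db/m islets, a 1.96-fold difference with a narrow gap between the groups (exact permutation p = 0.1). Sst against Ins2 was 1.92-fold higher and the groups overlapped (exact permutation p = 0.2). Against Iapp, Gcg was 1.85-fold and Sst 1.82-fold higher in db/db mice, and both overlapped, with db/m replicate 1 within the db/db range for Gcg and above it for Sst (exact permutation p = 0.3 and p = 0.4).

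Among the non-β hormones, the order of Ppy against Gcg separated the groups. Ppy had 15.2, 23.8 and 13.96 counts per 100 Gcg counts in db/db islets against 24.3, 24.5 and 33.2 in db/m islets. The ratio was 0.635-fold that of db/m mice (exact permutation p = 0.1), and the highest db/db mouse was just under the lowest db/m mouse. The ratio of Sst to Gcg, at 13.2, 17.3 and 18.02 per 100 in db/db islets against 21.4, 10.4 and 19.6 in db/m islets, overlapped (log2 difference -0.03; exact permutation p = 1). Pyy to Gcg overlapped as well (log2 difference 0.24; exact permutation p = 0.7).

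**Figure D3:**
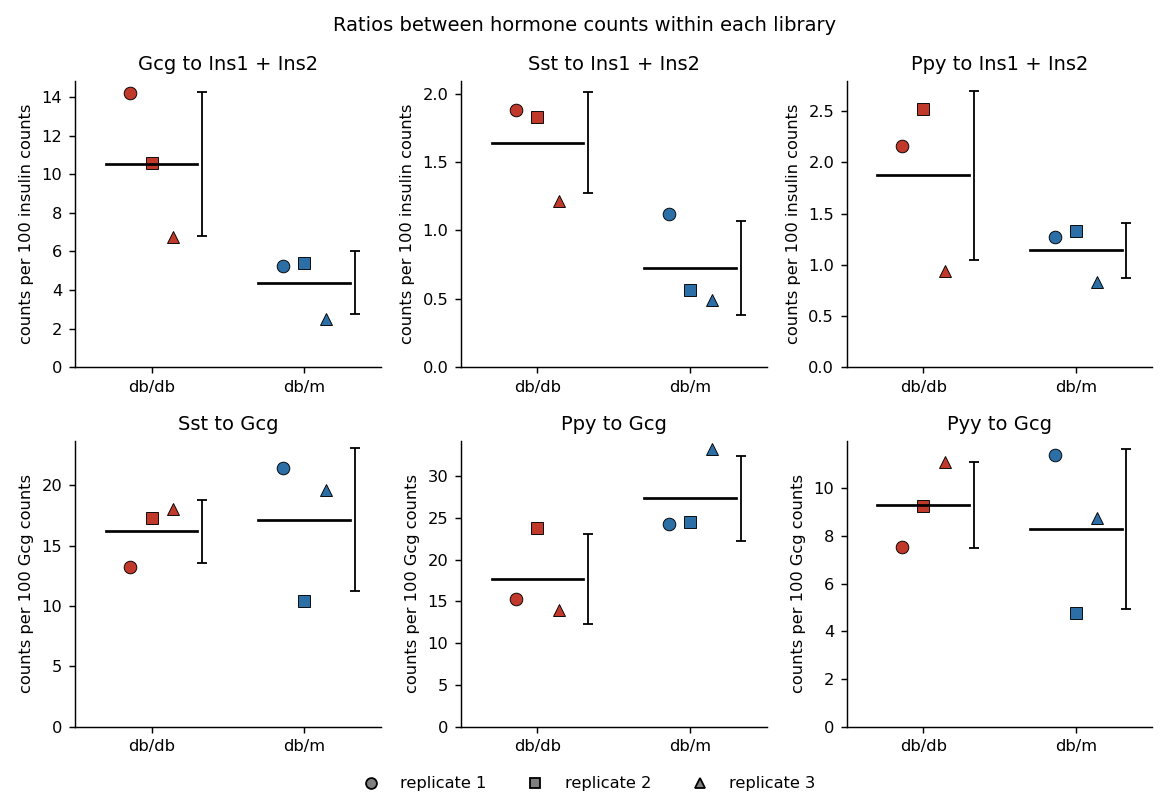
Ratios of hormone counts by library, per 100 insulin counts for Gcg, Sst and Ppy and per 100 Gcg counts for Sst, Ppy and Pyy. The db/db points are above the db/m points for Gcg and Sst to insulin and below them for Ppy to Gcg, and the other 3 ratios overlap.

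When counts were set against the whole library instead, the exocrine share entered the value. Gcg then took 0.0173%, 0.0532% and 0.0275% of all counts in db/db islets against 0.196%, 0.0327% and 0.0162% in db/m islets (exact permutation p = 0.7). The counting error was small beside these differences, with 95% Clopper-Pearson intervals from 0.0157% to 0.0168% for the lowest library and from 0.194% to 0.198% for the highest. The acinar share of the 6 libraries, as given, was lowest where the Gcg share was highest, in db/m replicate 1.

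Library size alone, RLE and upper-quartile factors kept Gcg, Sst, Ppy and Pyy below 0, whereas size factors from endocrine genes and the acinar covariate turned them, and none of these fits called 1 of the 5 genes. With size factors from 20 pan-endocrine genes alone, which set the endocrine part of each library to a like level, the fold change was 1.13 for Gcg (adjusted p = 0.328), 0.92 for Sst (adjusted p = 0.368), 0.55 for Ppy (adjusted p = 0.588), 1.11 for Pyy (adjusted p = 0.272) and 1.43 for Hhex (adjusted p = 0.161; edgeR). These factors moved the median of all tested genes to 1.26, so relative to it each of the 4 hormone genes was lower and Hhex was higher, and they gave 242 calls among all genes (1.90%; 204 higher and 38 lower, against 17 higher and 62 lower with TMM), 0 of 5 among these genes. With the mean log2 level of the acinar genes as a covariate, the fold change was 1.39 for Gcg, 1.68 for Sst, 0.82 for Ppy and 2.06 for Pyy, and the smallest adjusted p of the 4 was 0.0916 (Pyy, edgeR). In that fit the 95% intervals lay above 0 for Gcg (from 0.51 to 2.27), Sst (from 0.84 to 2.53) and Pyy (from 1.15 to 2.97), but not for Ppy. Over 17 alternative fits, the adjusted p of Gcg, Sst, Ppy, Pyy and Hhex lay between 0.0916 and 0.998.

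**Figure D4:**
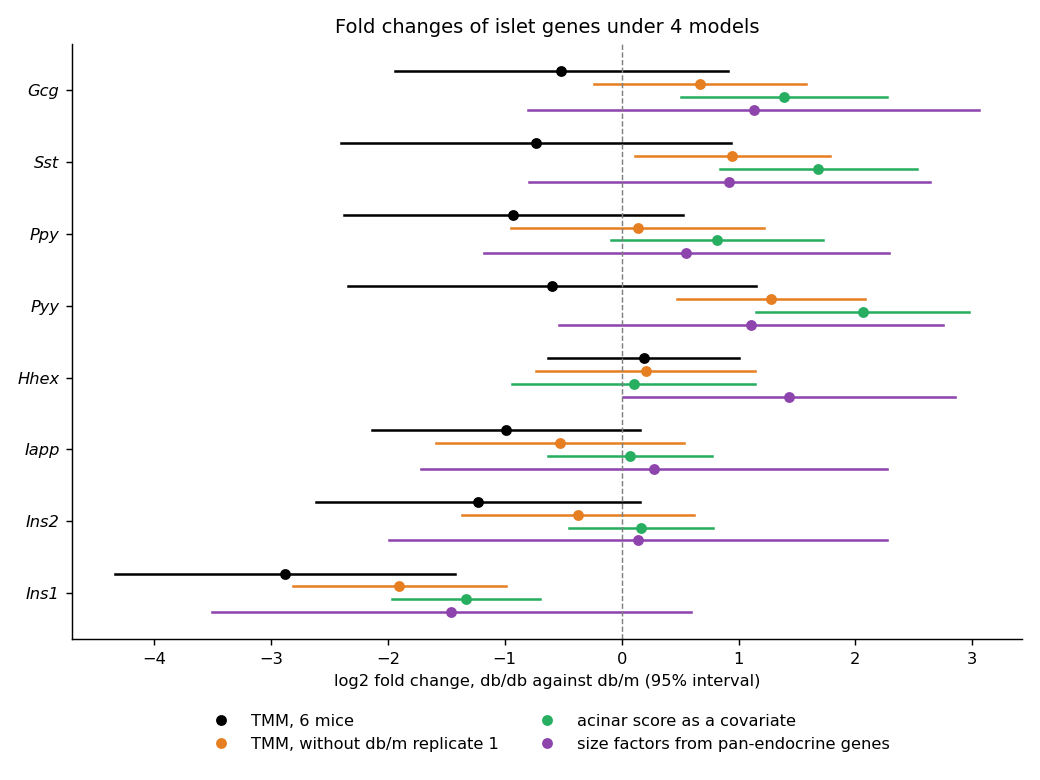
Log2 fold change of db/db against db/m for the 5 genes that passed the filter and for Iapp, Ins2 and Ins1, with 95% intervals. The 4 models are all 6 libraries with TMM factors, without db/m replicate 1, with the acinar score as a covariate, and with size factors from pan-endocrine genes. Ins1 lies below 0 in all 4, and Ins2 and Iapp only in the first model and without db/m replicate 1. Gcg, Sst, Ppy and Pyy lie below 0 in the first model (-0.51, -0.73, -0.93 and -0.60) and above 0 in the other 3, and Hhex lies above 0 in all 4.

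Marker genes of the same cells were read from lists. These lists also hold genes already compared above, such as Gcg in the α-cell list and Ppy and Pyy in the PP- and ε-cell list. Their counts, medians and sums therefore partly repeat the results of those genes and are not separate evidence. In the main edgeR fit the α-cell median, -0.51, was the fold change of Gcg itself. Of all tested genes, 0.619% were called in edgeR and 14.9% had an unadjusted p under 0.05, as a background for the list counts. Of the 22 α-cell genes, 15 passed the filter and 0 were called in either direction in edgeR. An unadjusted p under 0.05 was found in 5 of the 15, and the median fold change was -0.51 beside -0.00 over all tested genes. Of the 18 δ-cell genes, 12 were tested and 0 called in edgeR, with 3 at an unadjusted p under 0.05 and a median of -0.82. Of the 14 PP- and ε-cell genes, 10 were tested and 0 called in edgeR, with 4 at an unadjusted p under 0.05 and a median of -0.76. DESeq2 called 3 of 22 α-cell, 2 of 17 δ-cell and 2 of 13 PP- and ε-cell genes, beside 656 of all 23506 genes. With every gene of at least 1 count, edgeR called 4 of 22, 3 of 17 and 3 of 13, beside 888 of 23506. Without db/m replicate 3 it called 3 of 17, 1 of 13 and 2 of 10, beside 333 of 13640. With the acinar covariate 1 of 10 PP- and ε-cell genes was called, beside 52 of 12760. With the pan-endocrine factors 1 of 15 α-cell genes was called, beside 242 of 12760. Without db/m replicate 1 these medians were -0.04, 0.09 and -0.03. Summed over the list, α-cell genes came to between 524 and 887 CPM in db/db islets against between 476 and 1717 CPM in db/m islets, the highest being db/m replicate 1.

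The α-cell genes with the largest fold changes were Kcnmb2, a subunit of calcium-activated potassium channels, Peg3, an imprinted zinc finger gene, and Gc, which encodes the vitamin D binding protein. Kcnmb2 had 3.99 ± 2.62 CPM in db/db islets against 20.99 ± 11.1 CPM in db/m islets (adjusted p = 0.116, edgeR). Peg3 had 14.1 ± 6.25 against 70.8 ± 29.4 CPM (adjusted p = 0.0585). Both were without overlap between the groups in CPM, which held for 3 of the 15 tested α-cell genes and for 21.1% of all tested genes. Gc went the other way, at 16.1 ± 8.01 against 5.29 ± 4.63 CPM (SD, n = 3; fold change 1.59, adjusted p = 0.280), and with the pan-endocrine size factors its fold change was 2.94, with an adjusted p of 0.0242 (edgeR).

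In the δ-cell list the leading genes were Isl1, Pdx1 and Casr. Isl1 is a LIM homeobox factor of all islet endocrine cells, and Pdx1 is a homeobox factor of β and δ cells. Isl1 had 2.96 ± 1.81 CPM against 14.7 ± 7.86 CPM in db/m islets (fold change -2.29, adjusted p = 0.113, edgeR), and Pdx1 7.72 ± 1.01 against 24.0 ± 15.1 CPM (-1.64, adjusted p = 0.108). Casr, the calcium-sensing receptor, had a fold change of -1.63 (adjusted p = 0.223). In the PP- and ε-cell list they were Folr1, a folate receptor (-2.52, adjusted p = 0.145), Frzb, a secreted Wnt antagonist (-2.40, adjusted p = 0.0819), and Vtn, which encodes vitronectin (-1.82, adjusted p = 0.0931). These list genes are not restricted to 1 cell type, and Isl1 and Pdx1 are also β-cell genes.

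Receptors of these peptides, of other peptides cut from proglucagon and of the incretin GIP were read from a list of 14 genes. Of these, 6 passed the filter and 0 were called in edgeR. An unadjusted p under 0.05 was found in 4 of the 6, beside 14.9% of all tested genes. Sstr5, Npy2r and Npy5r had 0 counts in all 6 libraries. The median fold change was -1.31. DESeq2 called 2 of 11 receptors, edgeR with every gene of at least 1 count 3 of 11, and edgeR without db/m replicate 3 called 1 of 6. Over all genes these fits called 656 of 23506, 888 of 23506 and 333 of 13640. Gipr, the GIP receptor, had 1.49 ± 1.27 CPM in db/db islets against 22.6 ± 16.4 CPM in db/m islets (SD, n = 3; fold change -3.88, adjusted p = 0.0661, edgeR), from 2, 45 and 24 counts against 1100, 328 and 151. With the pan-endocrine size factors its fold change was -2.72 and its adjusted p was 0.0330. Sstr3, a somatostatin receptor, had 24, 152 and 115 counts in db/db islets against 1523, 497 and 257 in db/m islets (fold change -2.39, adjusted p = 0.116). Gcgr, the glucagon receptor, had a fold change of -1.71 (adjusted p = 0.280).

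Among 9 genes of prohormone processing, all of which were tested, 1 was called. Pcsk1, which encodes the convertase PC1/3 that cuts proinsulin, had 84, 275 and 236 counts in db/db islets against 3963, 1028 and 1138 in db/m islets, without overlap. In CPM, the groups did not overlap in 2 of the 9 genes of this list and in 21.1% of all tested genes. Pcsk1 was lower in db/db mice, with a log2 fold change of -2.77 ± 0.46 (SE; adjusted p = 0.0414, edgeR; between 1.9e-08 and 0.409 over the alternatives). The call was lost without db/db replicate 1 (0.154), 2 (0.137) or 3 (0.165) or db/m replicate 2 (0.0750) and with the replicate block (0.200; adjusted p, edgeR). With library size alone, upper-quartile factors or the pan-endocrine size factors (with or without db/m replicate 1), 0 of the 9 genes were called, so it was lost there too. The convertase PC2 gene Pcsk2, named here after its values were seen because proglucagon is its substrate, had 47.1 ± 26.4 against 157 ± 87.8 CPM (SD, n = 3; fold change -1.73, adjusted p = 0.163). DESeq2 called 2 of the 9 genes and edgeR with every gene of at least 1 count 3 of 9, beside 656 and 888 of 23506. The median of the list was -0.59.

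Of 20 pan-endocrine genes, 19 were tested and 1 was called, Neurod1, a basic helix-loop-helix factor of islet endocrine cells. It had 17, 55 and 48 counts in db/db islets against 680, 384 and 171 in db/m islets, and was lower in db/db mice, with a log2 fold change of -2.83 ± 0.46 (SE; adjusted p = 0.0349, edgeR; between 2.02e-08 and 0.296 over the alternatives). This call held without db/m replicate 3 (0.0142) and was lost without any other single mouse, at an adjusted p between 0.0686 (without db/m replicate 1) and 0.149 (without db/db replicate 3; edgeR), and with the replicate block (0.145). With library size alone, upper-quartile factors, the acinar covariate or the pan-endocrine size factors, 0 of 19 genes of the list were called, so it was lost there too. The list that sets those last factors holds Neurod1 itself. Of the 19 tested pan-endocrine genes, 12 had an unadjusted p under 0.05 (edgeR), beside 14.9% of all tested genes. The groups did not overlap in 10 of the 19, beside 21.1%. DESeq2 called 8 of 20, edgeR with every gene of at least 1 count 10 of 20, and edgeR without db/m replicate 3 called 5 of 19. Over all genes these fits called 656 of 23506, 888 of 23506 and 333 of 13640. The median of the list was -1.14. In the β-cell list, 5 of 17 tested genes were called, all lower in db/db mice, and the median was -2.35, beside -0.51, -0.82 and -0.76 in the α, δ and PP and ε lists. The β-cell calls came to 0 without db/db replicate 1, 2 or 3, with the replicate block or with library size alone. They came to 8 of 17 without db/m replicate 3 and to 13 of 18 in DESeq2, beside 333 of 13640 and 656 of 23506 genes in all. For other cells, the median was 0.69 over 33 acinar genes, of which 2 were called higher (Prss1 and Prss3, trypsinogen genes), both calls being lost without db/db replicate 1, 2 or 3 and with the replicate block, and that of Prss3 also without db/m replicate 2. In the duct, stromal, endothelial and leukocyte lists 0 genes were called in the main edgeR fit or DESeq2. An unadjusted p under 0.05 was found in 4 of 13, 1 of 13, 1 of 9 and 2 of 9 (edgeR), beside 14.9% of all tested genes. With every gene of at least 1 count, edgeR called 3 of 13 duct and 1 of 14 stromal genes. It also called 1 of 10 endothelial and 2 of 10 leukocyte genes, beside 888 of 23506 in all. Without db/m replicate 3, 1 of 13 duct genes was called, beside 333 of 13640. The medians of these lists were 0.36, 0.62, -0.59 and 0.75. Without db/m replicate 1 they were 0.14, 1.38, -0.10 and 2.69, and 3 of 13 stromal genes were called, beside 52 of 12984 in all. With the pan-endocrine factors 6 of 13 stromal and 4 of 9 leukocyte genes were called, beside 242 of 12760. With these factors and without db/m replicate 1, they were 6 of 13 and 5 of 9, beside 223 of 12984. With the acinar covariate 3 of 13 stromal genes were called, beside 52 of 12760. The part of these cells in the levels of the islet hormones was not tested.

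**Figure D5:**
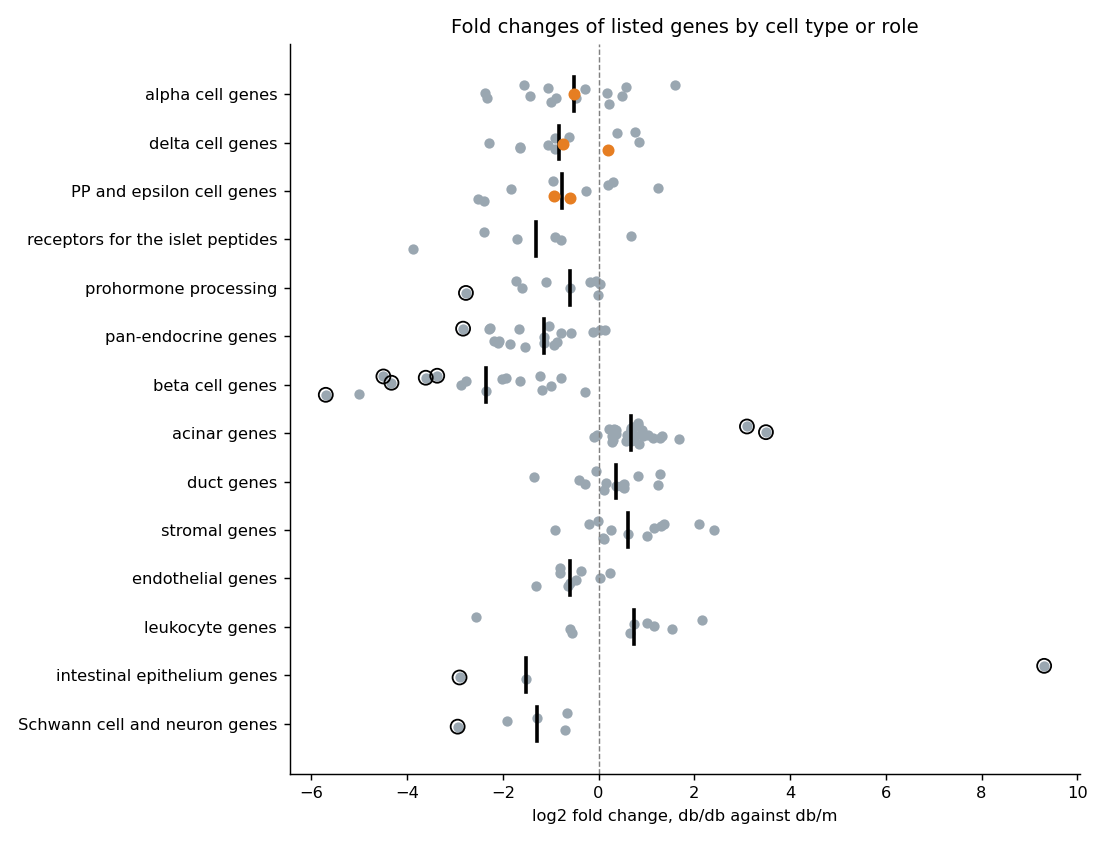
Log2 fold change of db/db against db/m for every tested gene of each marker list, with a black bar at the list's median and a black ring around genes with an adjusted p under 0.05 (edgeR). Orange points are the tested genes among the 8, which were not called. The medians run from -2.35 for the β-cell list to 0.75 for the leukocyte list, and the α, δ and PP and ε lists lie between -0.51 and -0.82. The fitted value of Cck, at the far right of the intestinal epithelium list, rests on 0 counts in db/m islets.

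Profiles over the 6 libraries were compared by the root mean square difference of log2(CPM + 1) after subtracting each gene's mean, over 7349 genes of at least 5 CPM. Pyy was the nearest gene to Sst, and Sst the nearest to Pyy (difference 0.153, against a median of 1.12 over all genes for Sst). Next to Sst came Gcg (0.349) and Rbp4 (0.354). For Gcg the nearest genes were Itm2c (0.344), Sst (0.349) and Trp53i13 (0.378), against a median of 0.967. Ppy lay nearest to Kcnk16 (0.253), a potassium channel gene, Ttr (0.298), which encodes transthyretin, and Cirbp (0.338), and its distance to its chromosomal neighbour Pyy was 0.633. Hhex was nearest to Pdcd6ip (0.0395), Wrb (0.0437) and Tex261 (0.0446), against a median of 0.344. The profiles share libraries and depth, and for the hormone genes db/m replicate 1 was the highest point of each.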

How the data were processed

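Islets of 3 db/db and 3 db/m mice, each library from a separate mouse, had been sequenced after removal of ribosomal RNA. The authors deposited 1 table of unnormalized read counts, with a row for each gene symbol and a column for each mouse. The submitters' processing notes name HISAT2 2.0.4 and mm10, whereas the methods of the study name TopHat, and the counting program, the annotation and the use of strand are not given in the sources used here. Counts per symbol were used as deposited.

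Group differences were fitted with edgeR 4.0.16 under R 4.3.3 (filterByExpr, TMM factors, quasi-likelihood F-test; Benjamini-Hochberg adjustment over 12760 genes, threshold 0.05). Standard errors were derived from each fold change and its F statistic, and intervals used the t distribution with the fit's degrees of freedom. For shares and ratios of single mice, exact permutation tests (two-sided) were run in scipy 1.17.1. Clopper-Pearson intervals (95%) and the floor of 3 counts (0.110 to 0.241 CPM by library) cover counting error only. Exon lengths (union of exons), positions and promoters came from RefSeq for GRCm38.p6.

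The 8 genes and the marker lists were chosen with earlier results of these data known. Genes named were the 8, Ins1, Ins2 and Iapp, called members of 6 lists (α, δ, PP and ε, receptors, prohormone processing and pan-endocrine) or else the 3 with the largest fold change in size, and for each tested gene of the 8 the 3 nearest profiles among tested genes of at least 5 CPM; other names were chosen after their values were seen. Alternatives were DESeq2 1.42.0, library size, RLE and upper-quartile factors, pan-endocrine size factors, 2 other filters (every gene with at least 1 count, or at least 10 counts in at least 3 libraries), leaving out genes of at least 1% of a library, a replicate block, the acinar score as a covariate, other denominators and each mouse left out in turn. The pipeline was tested on simulated data.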

Additional observations from a re-analysis of the deposited data

How the results depend on the processing

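Over 22 alternative settings the counts of called genes, the signs of the fold changes and the ratios moved as follows, and the causes were not tested. Against 79 genes in edgeR with TMM, 656 were called by DESeq2, 21 with library size alone, 52 with upper-quartile factors, 242 with the pan-endocrine factors (223 also without db/m replicate 1, added after seeing the data), 888 with every gene of at least 1 count, 52 with the acinar covariate and 10 to 333 with 1 mouse left out (333 without db/m replicate 3, 10 without db/db replicate 2). Library size alone moved the median of all tested genes to -0.59. Same-numbered mice were treated as unpaired because nothing in the labels pairs them. Their deviations from the group means correlated at -0.53, -0.20 and -0.32, and no db/db library correlated best with its own number. With 3 mice in each group, whose acinar shares also differed, these values cannot settle whether mice were paired. With the replicate block 16 genes were called, Pcsk1 and Neurod1 had adjusted p of 0.200 and 0.145 (edgeR), and the fold change of Pyy was 0.29. Fold changes turned from below to above 0 with the pan-endocrine factors (Gcg 1.13, Sst 0.92, Ppy 0.55, Pyy 1.11), with these and without db/m replicate 1 (1.57, 1.67, 0.88 and 2.01) and with the acinar covariate (1.39, 1.68, 0.82 and 2.06), and that of Hhex was -0.40 with library size alone. With 1 mouse left out they ranged from -0.92 to 0.67 for Gcg, -1.14 to 0.95 for Sst, -1.65 to 0.14 for Ppy and -1.02 to 1.28 for Pyy, each highest without db/m replicate 1. Differences in the share of all counts then ranged from -0.0818 to 0.00815 percentage points for Gcg, -0.0172 to 0.00218 for Sst and -0.00888 to 0.00161 for Pyy. Differences in the share of hormone counts ranged from -0.000174 to 0.00266 for Ghrl and -0.0428 to 5.08 for Iapp, and among the 5 non-β hormones alone the difference was -5.59 for Ppy and -0.00651 for Ghrl. Log2 ratios to Gcg ranged from -0.36 to 0.16 for Sst and -0.12 to 0.51 for Pyy. The other fold changes, shares and ratios kept their direction. Depth limited Ghrl, Irx1 and Irx2, which had 9 counts or fewer in each library but db/m replicate 1.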

Other observations

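One further peptide hormone gene, chosen after its values were seen, was listed at 0 in 1 group. Cck, which encodes cholecystokinin, a peptide of the gut and of neurons, had 23, 158 and 29 counts in db/db islets against 0 in all 3 db/m libraries. Its mean of 4.42 CPM in db/db mice was at least 29.6-fold higher than the mean floor of 0.149 CPM in db/m mice, taken as 3 counts per library, and at least 12.7-fold higher without db/db replicate 2. The adjusted p was 0.0453 in edgeR, lay between 2.6e-12 and 0.128 over the alternatives, was 0.0784 with the replicate block, and passed 0.05 with a single mouse left out only without db/m replicate 3 (0.0433), lying between 0.0729 (without db/m replicate 1) and 0.128 (without db/db replicate 2) without any of the others. Cck passed the filter on low counts only through its db/db libraries. It was also chosen by its values, so its adjusted p is not separate evidence of a difference. Of the 11 intestinal epithelium genes in the marker list, Cdx1, Fabp2, Fabp1, Gip and Nts had 0 counts in all 6 libraries, and Olfm4, the other called gene of that list, was lower in db/db mice, with 10, 22 and 14 counts against 358, 80 and 98 (adjusted p = 0.0414, edgeR; 0.0292 without db/m replicate 3, and between 0.0686, without db/m replicate 1, and 0.189, without db/db replicate 3, with any other mouse left out).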
